A study of Arabidopsis thaliana with 16 samples.

Results

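Jacalin-related lectins are plant proteins that bind sugars such as mannose through a shared fold, and the mustard family carries many genes for them. Several act with β-glucosidases: in root cells PYK10 is stored in ER bodies, which are compartments of the endoplasmic reticulum. When cells are broken PYK10 meets lectins of the cytosol and forms large complexes with them. JAL33 is known as one of the lectins found in that complex, and the myrosinase-binding proteins MBP1 and MBP2 are relatives that bind another class of β-glucosidase.

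The genes described are JAL33 (AT3G16450), AT1G52050, AT1G52060 and AT1G52070, each read by 1 probe set that the platform annotation gives to that gene alone, so 4 of 13355 genes with such a probe set and 4 of the 22746 probe sets that are not controls. In RefSeq's TAIR10.1 annotation AT1G52050, AT1G52060 and AT1G52070 are consecutive protein-coding genes on chromosome 1, between MBP1 and AR791. JAL33 lies on chromosome 3 between MLP-300B and JAL34. Neighbouring genes of 1 family can be similar in sequence, and whether these probe sets also bind a neighbour's transcript was not tested. The rule that chose the genes does not name its contrasts. They were taken from where earlier results of these data named the genes. JAL33 and AT1G52070 were so taken as selected on their fall from zone 1 to zone 2 at pH 5.7. AT1G52050 was taken as selected on its fall at low pH in zone 2. AT1G52060 lies between the other 2 chromosome 1 genes. No threshold was set. Those contrasts are therefore described without a test, and the others are tested. Later statements on which arrays picked a gene rest on this reading of the choice.

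The samples were sections of roots from Arabidopsis thaliana, Columbia ecotype, 6 days old, with no transgene or mutation named. Seedlings grew for 5 days on standard medium at pH 5.7 buffered with MES and then for 24 h on medium at pH 4.6 or pH 5.7, both with 3 mM DMG as buffer in its place. Roots were cut into longitudinal zones 1 to 4, called developmental stages, without a statement of the tissue in each. Each of the 8 groups of zone and pH had 2 arrays, 16 in all, and nothing says that the 2 came from separate cultures, so a p-value here reflects the spread between arrays, possibly only a technical one. In such bulk sections fewer cells of a type and less RNA per cell cannot be told apart.

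Levels are MAS5 signal intensities, scaled by the authors to a common target on each array, and the number of arrays limits their precision. The 2 replicates of a group correlated across probe sets with Pearson r between 0.838 and 0.958. On 4 arrays, those of replicate 2 in zones 2, 3 and 4 at pH 5.7 and in zone 3 at pH 4.6, the mean over 69 plastid-encoded probe sets lay over 1 log2 unit above that of the other replicate. Several results of the 4 lectin genes are therefore also given without these arrays. Those of the other family genes and of the ER body genes are not. Markers of the zones bore on what each number covered as far as they were measured. The 4 root hair markers (EXPA7, EXPA18, AT4G26010 and AT1G30870) summed to between 10184 and 13737 in zone 3 at pH 5.7 and to at most 137 in zones 1 and 2 at that pH. BBM, a transcription factor of stem cell identity, read 132 and 112 in zone 1 at pH 5.7 and at most 64.1 on any array of zones 2 to 4. AUR1, a kinase of dividing cells, did not set zone 1 apart, with 372 and 403 there and 371 and 409 in zone 4 at pH 5.7. AUR2, from the same marker list, read 179 and 161 in zone 1 at pH 5.7. It read at most 121.6 on any array of zones 2 to 4, and 66 and 44.5 in zone 1 at pH 4.6. Of the meristem markers 3 of 9 had a single-gene probe set, of the endodermis markers 1 of 4, of the green tissue markers 2 of 4, and of the root cap and xylem markers 0 of 3 and 0 of 5.

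The members showed 2 shapes along the root. AT1G52050, AT1G52060 and AT1G52070 were brightest in zone 1, intermediate in zone 2 and dim in zones 3 and 4, while JAL33 was bright at both ends of the pH 5.7 root and dim in zone 2. Across the 16 arrays the 3 neighbouring genes correlated with one another with Pearson r from 0.924 to 0.968, and JAL33 correlated with them with r from 0.025 to 0.185. These correlations describe arrays that share zones and pH, and carry no test.

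**Figure D1:**
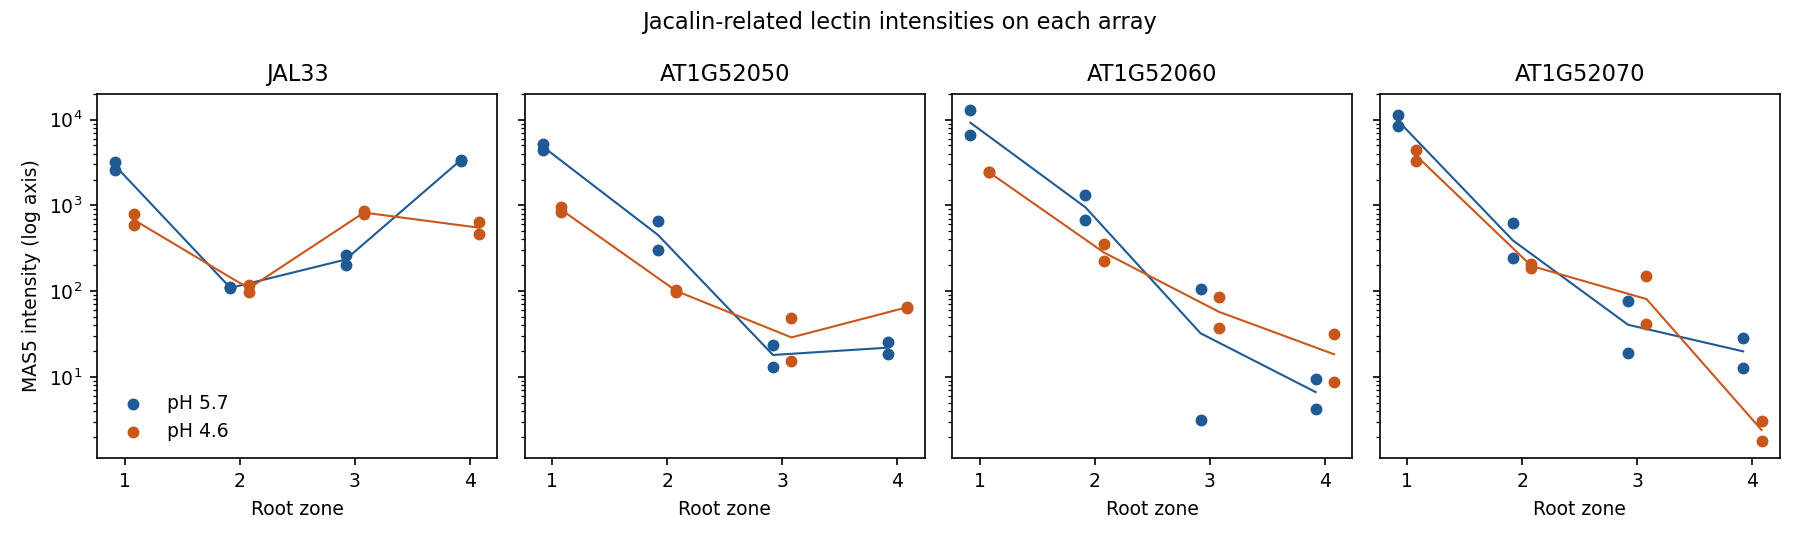
MAS5 intensity (log axis) of the 4 lectin genes on each of the 16 arrays by root zone, with pH 5.7 in blue and pH 4.6 in orange; lines join group means taken as log2(intensity + 16). JAL33 falls to 97.8 to 118 in zone 2 and, at pH 5.7, is back at 3330.8 and 3388.4 in zone 4, whereas the 3 neighbouring genes descend from 829 or more in zone 1 to 65.3 or less in zone 4.

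JAL33, the lectin of the PYK10 complex, read 3330.8 and 3388.4 in zone 4 at pH 5.7 and 3240.2 and 2562.2 in zone 1 at pH 5.7, its 2 highest groups. Zone 3 at pH 4.6 followed with 865 and 783, zone 1 at pH 4.6 with 786 and 585 and zone 4 at pH 4.6 with 645 and 466. Those 3 groups overlapped from one to the next, and all lay above zone 3 at pH 5.7 with 267 and 203. The lowest groups, zone 2 at pH 5.7 with 110.5 and 107 and zone 2 at pH 4.6 with 118 and 97.8, overlapped. The acid-treated groups of zones 1, 3 and 4 thus lay between the bright pH 5.7 groups and zone 3 at pH 5.7.

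AT1G52050 read 4461.9 and 5241.7 in zone 1 at pH 5.7 and 947 and 829 in zone 1 at pH 4.6. In zone 2 it read 664 and 305 at pH 5.7 and 97.8 and 102.5 at pH 4.6, so that each of these 4 groups lay wholly below the one before. Zone 4 at pH 4.6 followed with 65.3 and 63.6. The other 3 groups, zone 3 at both pH values and zone 4 at pH 5.7, read between 13 and 48 and overlapped.

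AT1G52060 and AT1G52070 had the same order over their 4 brightest groups. AT1G52060 read 6547 and 12923.2 in zone 1 at pH 5.7, 2428 and 2451 in zone 1 at pH 4.6, 1317.6 and 680 in zone 2 at pH 5.7, and 222 and 357 in zone 2 at pH 4.6. Its arrays in zones 3 and 4 ranged from 3.1 to 105.5, and both values at the ends of the range for zone 3, 3.1 and 105.5, came from the 2 replicates at pH 5.7.

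AT1G52070 read 8431.4 and 11184.4 in zone 1 at pH 5.7, 4363.8 and 3272.8 in zone 1 at pH 4.6, 619 and 241.5 in zone 2 at pH 5.7, and 186 and 208 in zone 2 at pH 4.6. In zones 3 and 4 it ranged from 1.77 to 148, and only in zone 4 did its 2 groups lie apart, with 12.8 and 28.5 at pH 5.7 and 3.05 and 1.77 at pH 4.6. Only probe sets with a zone mean of 5.95 or more were tested, taken on the log2(intensity + 16) scale and equal to an intensity of 45.7. All 4 genes passed; AT1G52060 and AT1G52070 each read below 45.7 on 6 of 16 arrays, AT1G52050 on 5 and JAL33 on 0.

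The low pH comparison asked how each zone's transcripts differed after 24 h at pH 4.6. Fold changes below are pH 4.6 over pH 5.7 on the log2(intensity + 16) scale ± SE, which understates the change of dim genes. The test was limma over 16405 probe sets with Benjamini-Hochberg adjustment, 2 arrays a group and a threshold of 0.05.

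In zone 1 all 4 lectin genes were lower on both acid arrays than on both control arrays, and 2 of them passed the test. The control arrays are those on which JAL33 and AT1G52070 had been picked as high. The values of these 2 genes, the count of 2 and the median below thus draw on selecting values. They are no independent result. JAL33 fell by 2.06 ± 0.28, or 4.17-fold (adjusted p = 0.00221). AT1G52050 fell by 2.43 ± 0.40, or 5.38-fold (adjusted p = 0.0101). AT1G52060 had -1.91 ± 0.66 and AT1G52070 -1.36 ± 0.54 with adjusted p = 0.222 and 0.284. Over all probe sets 0.378% were called lower in this comparison, 0.305% were called higher and 22.9% had both acid arrays below both control arrays. The median of the 4 genes was -1.99, beside 0.02 for all probe sets tested.

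The zone 1 comparison of JAL33 and AT1G52070 uses the pH 5.7 arrays on which both had been picked as high, and that of AT1G52050 shares no array with the contrast that picked it. The call of JAL33 held without any 1 array; that of AT1G52050 was lost without zone 1 pH 4.6 replicate 1 (adjusted p = 0.0658) or either zone 1 pH 5.7 replicate (0.0806 and 0.0838), with folds of -2.52, -2.54 and -2.31. The 4 arrays high in plastid transcripts are not in zone 1, and leaving them out was chosen after seeing the data. Without them the folds of AT1G52060 and AT1G52070 stayed at -1.91 and -1.36, and only their SE fell, to 0.40 and 0.27. Without either zone 3 pH 5.7 replicate the fold of AT1G52060 was likewise -1.91, with an SE of 0.45. With a pseudocount of 64 AT1G52060 was called (limma, adjusted p = 0.0491). Other measures also separated the zone 1 groups, and their part in the result was not tested. For GAPDH the ratio of 3' over 5' probe sets, a sign of RNA quality, was on the log2 scale 7.99 and 5.77 at pH 4.6 and 4.95 and 5.59 at pH 5.7. The plastid mean was 9.91 and 10.29 against 8.25 and 8.78. The 3 measured meristem genes summed to between 326 and 490 at pH 4.6 and between 676 and 683 at pH 5.7, with the lowest single value of the list, 1.68, above 0. AUR1 read 248 and 166 at pH 4.6 against 372 and 403, and AUR2 66 and 44.5 against 179 and 161. BBM was not lower, with 176 and 116 at pH 4.6 and 132 and 112 at pH 5.7. The 2 green tissue genes (LHCB4.1 and PSBW) summed to between 94.6 and 97.4 at pH 4.6 and between 267.7 and 273.3 at pH 5.7.

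In zone 2 JAL33 had -0.02 ± 0.28 and its groups overlapped. AT1G52050 had -2.01 ± 0.40, AT1G52060 -1.69 ± 0.66 and AT1G52070 -0.93 ± 0.54, each with both acid arrays below both control arrays, which 21.0% of all probe sets showed; 0.0853% were called lower and 0.299% higher. These values describe the contrast that picked AT1G52050. The 2 control arrays of zone 2 differed, with 664 and 305 for AT1G52050, and without replicate 2, which was high in plastid transcripts, its value was -2.55. Without replicate 1 it was -1.47. The value of AT1G52070 was -1.58 without replicate 2 and -0.28 without replicate 1.

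In zone 3 JAL33 rose by 1.75 ± 0.28, or 3.37-fold, from 267 and 203 to 865 and 783 (adjusted p = 0.00305), beside 1.90% of all probe sets called higher and 0.896% called lower. The 3 neighbouring genes were dim there, with overlapping arrays and values of 0.40 ± 0.40, 0.61 ± 0.66 and 0.78 ± 0.54 for AT1G52050, AT1G52060 and AT1G52070, and none passed (adjusted p from 0.507 to 0.7). JAL33 kept its call without any 1 array. It had 1.64 ± 0.38 (adjusted p = 0.103) without the 4 arrays high in plastid transcripts, a fit that compares 1 array with 1 in zone 3, and adjusted p = 0.135 in a fit of the zone 3 arrays alone. At low pH the root hair markers of zone 3 were lower, with sums from 2020 to 2408 against 10184 to 13737. GSO1, a receptor kinase of the endodermal barrier, was also lower, with 828 and 842 against 1597 and 1681, and the GAPDH ratio was 4.13 and 4.44 against 5.08 and 5.59. The green tissue genes summed to between 339.6 and 446 against 743 and 894.5. The part of these in the JAL33 result was not tested.

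In zone 4 JAL33 fell by 2.58 ± 0.28, or 5.98-fold, from 3330.8 and 3388.4 to 645 and 466 (adjusted p = 0.000167), beside 1.53% of all probe sets called lower and 1.38% called higher. The call held under every alternative run, with values from -2.81 to -2.35 and adjusted p of at most 0.00982. AT1G52050 was higher on both acid arrays, 65.3 and 63.6 against 18.6 and 25.5, with 1.09 ± 0.40 (adjusted p = 0.172), and 29.2% of all probe sets were higher in that way. AT1G52070 was lower on both, with -0.96 ± 0.54 (adjusted p = 0.414), as were 22.5% of all, and AT1G52060 overlapped (0.60 ± 0.66). Of the other measures, the root hair sum of zone 4 was 131 to 211 at pH 4.6 and 1405 to 1620 at pH 5.7, and the GAPDH ratio was 5.67 and 4.92 against 3.25 and 3.65. GSO1 was higher at pH 4.6 in zone 4, with 804 and 771.5 against 403 and 439, the opposite of zone 3. Their part in the result was not tested.

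**Figure D2:**
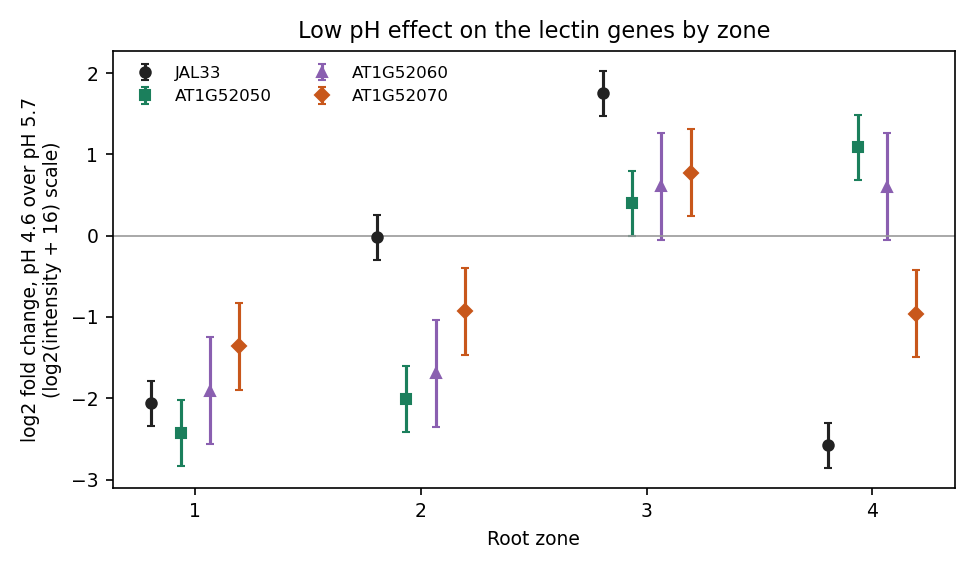
Log2 fold change at pH 4.6 over pH 5.7 (y axis, log2(intensity + 16) scale) in root zones 1 to 4 (x axis) for the 4 lectin genes, as points with bars of 1 SE from the limma fit with 2 arrays a group. JAL33 lies at -2.06, -0.02, 1.75 and -2.58 in zones 1 to 4; the 3 neighbouring genes lie below 0 in zones 1 and 2 and above 0 in zone 3, where their arrays overlap.

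The low pH effect of JAL33 thus had opposite signs in zone 3 and in zones 1 and 4. A moderated F-test of the difference of the effect among zones 1, 3 and 4 gave adjusted p = 0.000112 for JAL33 and 0.0108 for AT1G52050, whose values were -2.43, 0.40 and 1.09 in those zones. AT1G52060 and AT1G52070 did not pass (adjusted p = 0.197 and 0.218). AT1G52050 was dim at pH 5.7 in zone 3 (23.8 and 13) and zone 4 (18.6 and 25.5). A fall as large as that of zone 1 could not show there on this scale. For this gene the test cannot tell a different low pH effect from dim signal. Over all probe sets 2.02% passed this test. It includes the zone 1 pH 5.7 arrays on which JAL33 and AT1G52070 had been picked as high, so for these 2 genes it is not independent of the choice, while the JAL33 effects of zones 3 and 4, of opposite sign, use no such array. JAL33 at pH 4.6 read 645 and 466 in zone 4 and 865 and 783 in zone 3, where at pH 5.7 zone 4 was 13.6-fold above zone 3.

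Zone steps at pH 4.6 use arrays that did not pick JAL33 or AT1G52070. From zone 1 to zone 2 all 4 genes fell, with -4.16 ± 0.54 for AT1G52070 (adjusted p = 0.000231), -3.04 ± 0.66 for AT1G52060 (0.00993), -2.96 ± 0.40 for AT1G52050 (0.000364) and -2.49 ± 0.28 for JAL33 (8.08e-05). Of all probe sets 3.44% were called lower and 5.26% higher. The zone 2 arrays at pH 4.6 are among those that picked AT1G52050 as low. Its fall over this step thus draws on selecting values and is no independent result. The count of 4 genes falling draws on them too. AT1G52060 lost its call without zone 1 pH 4.6 replicate 1 or either zone 2 pH 4.6 replicate (adjusted p from 0.0529 to 0.0806), and with a pseudocount of 1 (0.0953). At pH 5.7 the same step was -4.54 ± 0.28 for JAL33, -3.38 ± 0.40 for AT1G52050, -3.26 ± 0.66 for AT1G52060 and -4.59 ± 0.54 for AT1G52070, given as a description because it picked members; 1.48% of all probe sets were called lower there and 1.66% higher.

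From zone 2 to zone 3 the genes parted. JAL33 rose by 2.77 ± 0.28 at pH 4.6 (adjusted p = 7.35e-06) and by 1.00 ± 0.28 at pH 5.7 (0.0123). The pH 5.7 step starts from the zone 2 arrays on which JAL33 and AT1G52070 had been picked as low and AT1G52050 as high, so its values for these 3 genes, the rise of JAL33 and the fall of AT1G52050 among them, draw on selecting values and are no independent result. At pH 5.7 the neighbouring genes fell, with -4.32 ± 0.66 for AT1G52060 (0.000137), -3.78 ± 0.40 for AT1G52050 (5.13e-06) and -2.84 ± 0.54 for AT1G52070 (0.000855). At pH 4.6 AT1G52060 had -2.02 ± 0.66 (0.0411) and AT1G52050 -1.38 ± 0.40 (0.0247), both called, from zone 2 arrays that picked AT1G52050 as low, while AT1G52070 had -1.14 ± 0.54 (0.16). This step called many probe sets: 13.6% higher and 16.9% lower at pH 5.7, 10.1% higher and 9.53% lower at pH 4.6. The pH 5.7 call of JAL33 was lost without zone 2 replicate 1 or 2 or zone 3 replicate 1 (adjusted p = 0.0516, 0.0561 and 0.0616) and with median centring (0.0684) or the arrays of the step alone (0.205). Without the 4 arrays high in plastid transcripts it was 1.16 (0.0557), also not called. The pH 4.6 calls of AT1G52050 and AT1G52060 were both lost without zone 2 replicate 1 or 2 or zone 3 replicate 1, with adjusted p from 0.0979 to 0.247. That of AT1G52060 was also lost without zone 3 replicate 2 at pH 4.6 (0.0551) or an array of zone 1 at pH 4.6 or of zone 4 at pH 5.7 (from 0.0512 to 0.053). AT1G52050 lost its pH 4.6 call with a pseudocount of 64 (-0.80, 0.0672) or the arrays of the step alone (0.0683), and AT1G52060 with a pseudocount of 1 (0.165), without the filter (0.0542) or without the intensity trend (0.0639). AT1G52070 was called at pH 4.6 without zone 3 replicate 2 (-1.90, 0.0447) and without the 4 arrays (-1.90, 0.00354).

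From zone 3 to zone 4 at pH 5.7 JAL33 rose by 3.76 ± 0.28, or 13.6-fold (adjusted p = 1.14e-06), a call that held under every alternative run. Of all probe sets 6.63% were called higher and 5.32% lower. The 3 neighbouring genes had overlapping arrays and adjusted p from 0.295 to 0.829. At pH 4.6 JAL33 had -0.57 ± 0.28 (adjusted p = 0.313). AT1G52070 fell by 2.39 ± 0.54 at pH 4.6 (adjusted p = 0.0187; 2.29% of all called lower and 1.90% higher), all within dim values of 148 or less. That call was lost without zone 3 pH 4.6 replicate 2 (-1.63, adjusted p = 0.213) or either zone 4 pH 4.6 replicate (0.116 and 0.141), and with a pseudocount of 64 (-1.17, 0.104). AT1G52060 had -2.42 (adjusted p = 0.00804) at pH 5.7 without zone 3 replicate 1 and 0.25 without replicate 2, so this step depended on a single array.

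The wider family was followed through a list of 45 other loci, written from general knowledge of the family since the annotation names only some of them as lectins. A single-gene probe set was found for 18, and 7 of these passed the filter; the other 11 were dim in every zone mean. Of these 7, 0 passed the limma test at low pH in zone 1, 3 or 4, and at most 1, 2 and 2 did so without any 1 array. Of all probe sets 0.378% were called lower and 0.305% higher at low pH in zone 1. The shares were 0.896% and 1.90% in zone 3 and 1.53% and 1.38% in zone 4, so 0 of 7 is close to the background. Among the zone steps AT5G35940 and AT1G33790 shared the fall from zone 1. AT5G35940 read 1429 and 1629 in zone 1 at pH 4.6 and 78.8 and 35.1 in zone 2, a fall of 4.47 ± 0.76 (adjusted p = 0.00209). AT1G33790 fell by 2.44 ± 0.48 over the same step (0.00556), so 2 of 7 were lower and 0 higher, beside 3.44% and 5.26% of all probe sets.

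From zone 2 to zone 3 at pH 5.7, where 16.9% of all probe sets were called lower and 13.6% higher, 3 of the 7 fell, with -3.18 ± 0.76 for AT5G35940 (adjusted p = 0.00476), -2.37 ± 0.46 for AT2G25980 (0.000993) and -1.44 ± 0.48 for AT1G33790 (0.0339). At pH 4.6 AT1G33790 fell by 1.48 ± 0.48 (0.0417), and JAL22, another lectin, rose by 1.57 ± 0.47 (0.0293). From zone 3 to zone 4 at pH 5.7 JAL22 rose by 2.22 ± 0.47 (0.00696), from 15.7 and 42.8 to 177 and 195, and AT1G57570 fell by 1.97 ± 0.47 (0.0131). At pH 4.6 AT2G25980 fell by 2.40 ± 0.46 (0.00683). JAL22 passed the filter only through zone 4, where it was highest. Its rise from zone 3 to zone 4 thus draws on the filter and is no independent result. Of all probe sets 10.1% were called higher and 9.53% lower from zone 2 to zone 3 at pH 4.6. From zone 3 to zone 4 the shares were 6.63% and 5.32% at pH 5.7 and 1.90% and 2.29% at pH 4.6. Without any 1 array the called genes among the 7 numbered 2 to 3 and 0 to 4 from zone 2 to zone 3 at pH 5.7 and 4.6, 0 to 3 and 0 to 1 from zone 3 to zone 4, and 1 to 3 from zone 1 to zone 2 at pH 4.6. Fits of the step alone called 0 from zone 2 to zone 3 at pH 4.6 and 0 from zone 3 to zone 4 at pH 5.7.

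Beside the members' low pH values in zone 1, AT5G35940 read 1429 and 1629 at pH 4.6 and 3436 and 3142 at pH 5.7, with -1.10 ± 0.76 (adjusted p = 0.569). AT2G25980 had -0.66 ± 0.46 (0.568), AT1G33790 0.35 ± 0.48 (0.804), and JAL34, the chromosome 3 neighbour of JAL33, -1.0 ± 0.27 (0.112). In zone 4 JAL34 read 3797 and 4152 at pH 4.6 and 7158 and 6804 at pH 5.7, with -0.81 ± 0.27 (adjusted p = 0.129). Its arrays lay apart as those of JAL33 did, and its change did not pass the test.

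**Figure D3:**
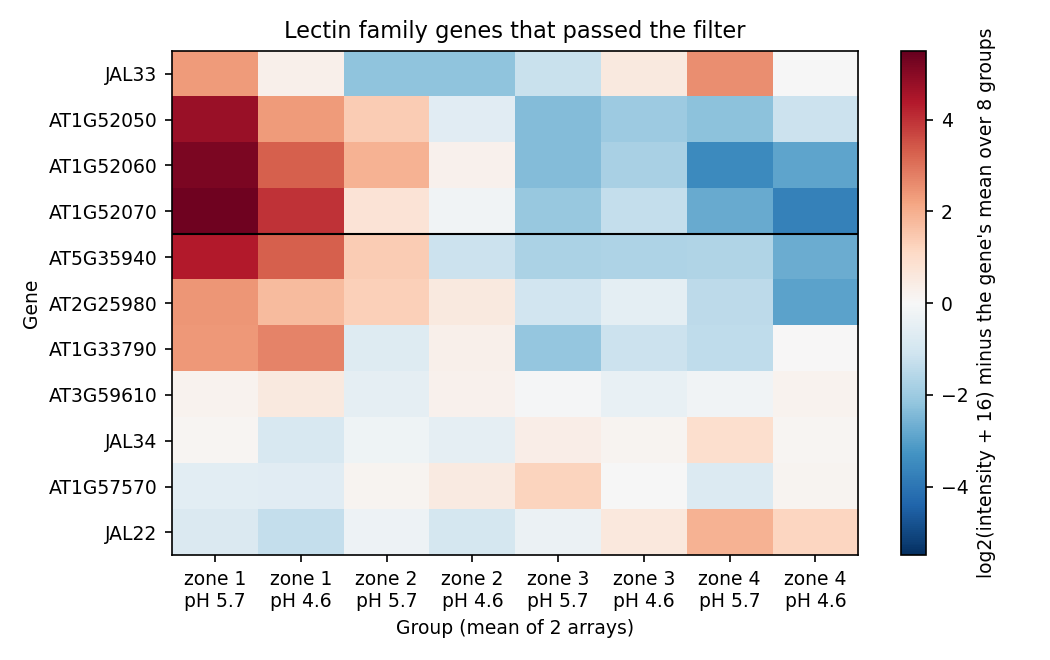
Group means of log2(intensity + 16) minus each gene's mean over the 8 groups (colour scale) for the 4 lectin genes, above the line, and the 7 other family genes that passed the filter, below it. Columns are zones 1 to 4 at pH 5.7 and 4.6. AT5G35940, AT2G25980 and AT1G33790 have their highest values in zone 1, like the 3 neighbouring genes, and JAL22 and JAL34 have theirs in zone 4 at pH 5.7, like JAL33.

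Of 17 listed genes of ER bodies and the PYK10 complex 6 had a single-gene probe set and 5 passed the filter, JAL34 and JAL22 among them. PYK10, the β-glucosidase itself, read 7547 and 5416 in zone 1, 3455 and 1568 in zone 2, 5632 and 4163 in zone 3 and 10641 and 9945 in zone 4 at pH 5.7, also lowest in zone 2 and highest in zone 4. It rose from zone 2 to zone 3 at pH 4.6 by 2.08 ± 0.34 (adjusted p = 0.000447) and at pH 5.7 by 1.05 ± 0.34 (0.0265), and from zone 3 to zone 4 at pH 5.7 by 1.09 ± 0.34 (0.0475). From zone 2 to zone 3 at pH 5.7, 1 of 5 rose, and 2 of 5 rose over that step at pH 4.6 and from zone 3 to zone 4 at pH 5.7, each time PYK10 with or without JAL22; 0 of 5 fell. Of all probe sets 13.6%, 10.1% and 6.63% were called higher in these steps, so 1 of 5 is close to the background. JAL22 passed the filter only through zone 4, so the count of 2 from zone 3 to zone 4 is no independent result.

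At low pH 0 of these 5 passed the limma test in zone 1, 3 or 4 (the lowest adjusted p was 0.112). In each of these zones at most 1.90% of all probe sets were called higher and at most 1.53% lower, so 0 of 5 is close to the background. In zone 1, 4 of 5 had both acid arrays below both controls, as had 22.9% of all probe sets: PYK10 with -1.24 ± 0.34, NAI1, the transcription factor needed for ER bodies, with -1.29 ± 0.37, JAL34 with -1.0 ± 0.27 and NAI2, a protein that shapes ER bodies, with -0.73 ± 0.50. In zone 4, where JAL33 fell 5.98-fold, PYK10 had 0.10 ± 0.34, with 10794 and 11298 at pH 4.6 and 10641 and 9945 at pH 5.7. Whether the zone 4 effects of JAL33 and PYK10 differ was not tested.

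**Figure D4:**
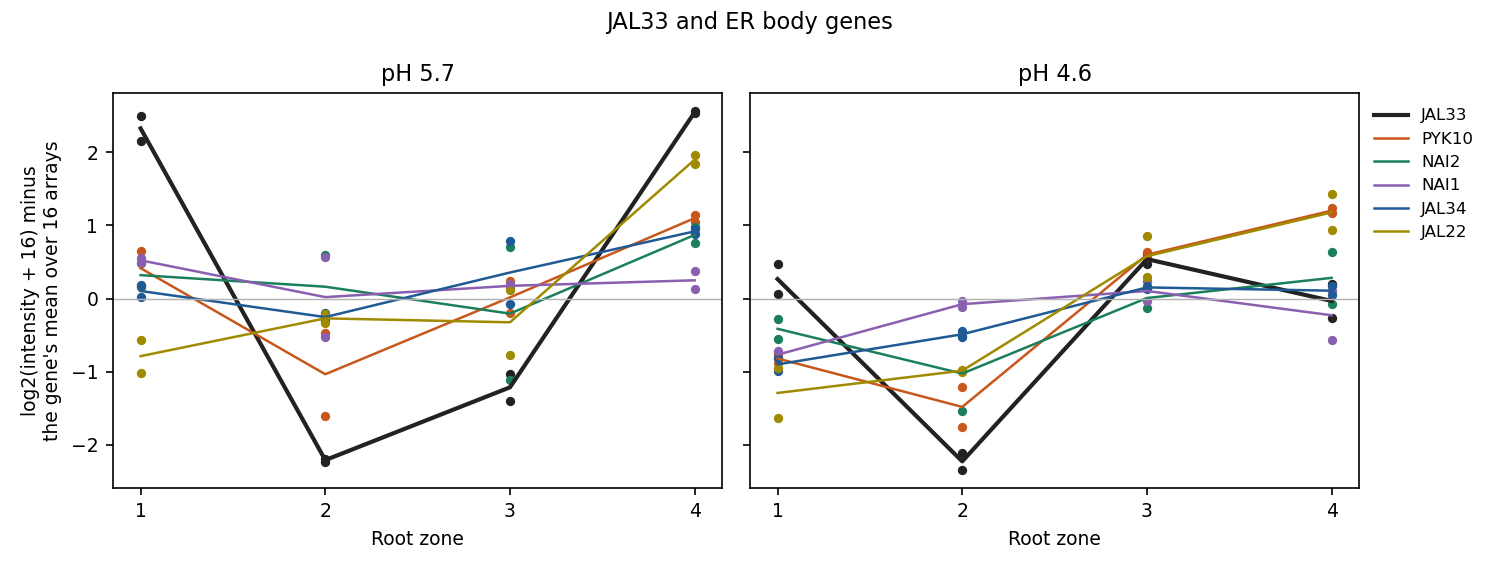
Log2(intensity + 16) minus each gene's mean over the 16 arrays (y axis) by root zone (x axis) at pH 5.7 (left) and pH 4.6 (right), with a point per array and lines through group means. JAL33 is lowest in zone 2 at both pH values and at pH 5.7 rises 13.6-fold from zone 3 to zone 4, while PYK10 is highest in zone 4 in both.

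The genes most like each member were taken from 3491 other single-gene probe sets whose group means span at least 2 log2 units, by Pearson r over the 16 arrays, as a description. For JAL33 they were UGT76C2, a cytokinin glucosyltransferase (r = 0.862), scpl28, a serine carboxypeptidase-like gene (0.847), and EXPA4, an expansin (0.824). Like JAL33, scpl28 was high in zone 4 at pH 5.7 with 859 and 990 and lower at pH 4.6 with 132 and 161. UGT76C2 read at most 17.5 in zone 2 and at least 90.4 in the other zones. It was also lower at pH 4.6 in zone 4, with 165 and 202 against 359 and 238, but its arrays overlapped in zone 1. EXPA4 overlapped in zone 4, with 54.6 and 104.3 at pH 4.6 and 74.4 and 120.5 at pH 5.7. It overlapped in zone 1 too, with 96 and 75.7 against 87.1 and 62.5.

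For AT1G52070 the most alike were AT5G60530 (r = 0.978), AT5G54370 (0.976) and AT5G24070 (0.964), and for AT1G52060 they were AT5G60530 (0.973), ATGSTF13, a glutathione S-transferase (0.969), and AT4G11610 (0.968). For AT1G52050 they were AT4G27380 (0.963), AT2G28600 (0.959) and AT4G10480 (0.956). AT5G60530, shared by 2 of the lists, read 5099.4 and 5721.1 in zone 1 at pH 5.7, 1137.9 and 582.5 in zone 2 and, still at pH 5.7, from 17.1 to 39.2 in zones 3 and 4. At pH 4.6 in zone 1 it read 4797.6 and 3047.4, below its pH 5.7 arrays as the lectin genes were. AT5G24070 went the other way there, with 4076 and 2498 at pH 4.6 and 2191 and 2213 at pH 5.7. The r values for JAL33 were lower than those for the neighbouring genes.

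**Figure D5:**
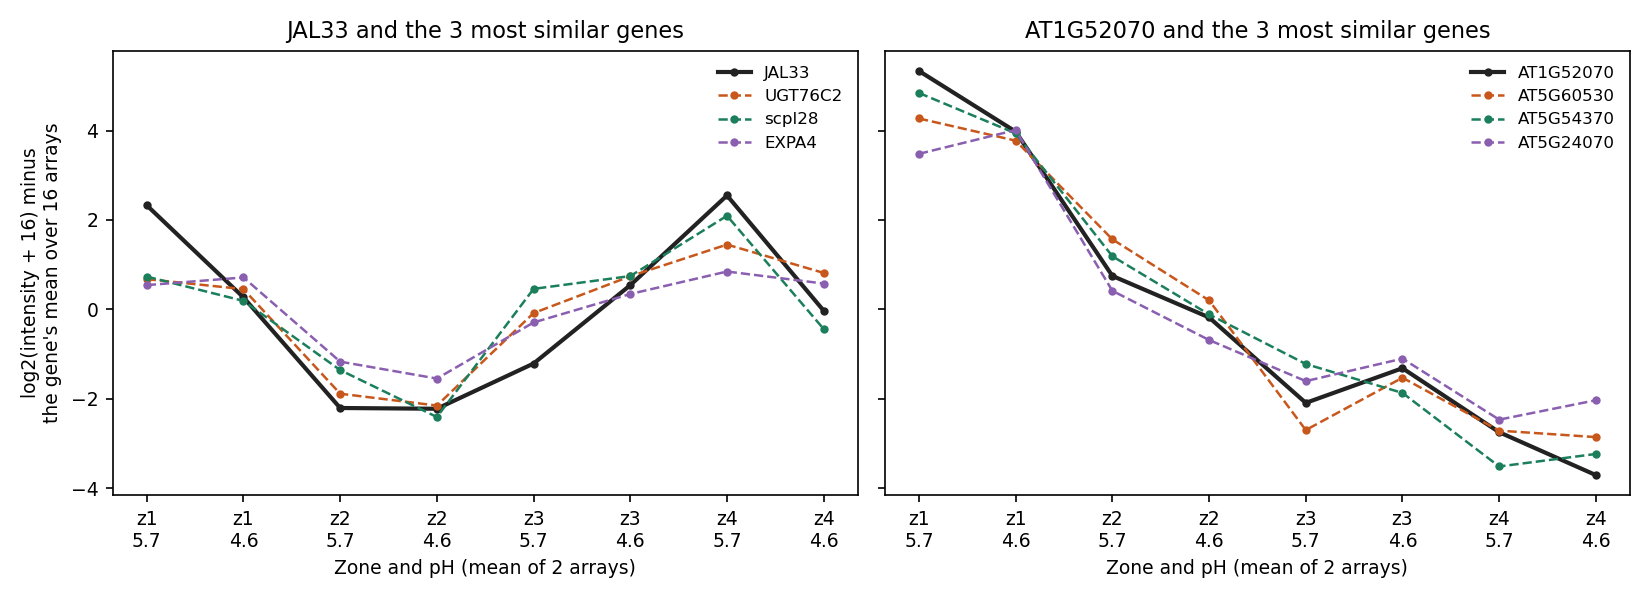
Group means of log2(intensity + 16) minus each gene's mean over the 16 arrays (y axis) over the 8 groups (x axis, z1 to z4 for the zones, with pH) for JAL33 (left) and AT1G52070 (right), in black, each with its 3 most similar genes, dashed. The genes beside JAL33 (r from 0.824 to 0.862) share its low in zone 2, and those beside AT1G52070 (r from 0.964 to 0.978) share its descent from zone 1.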

How the data were processed

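The authors deposited 1 linear intensity per probe set and array for 22810 probe sets; they name MAS5 in their processing notes (per the submitters' processing notes), with no version. Per the labels' protocols RNA was labelled with 2 rounds of amplification. The scale is linear and not centred, each array's mean between the 2nd and 98th percentile being close to 250.

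Control probe sets (64) were left out. Names came from the platform annotation (13513 probe sets with 1 gene, 503 with several, 8730 not listed), updated through Entrez identifiers in RefSeq's TAIR10.1 table (13436 found). For list genes the brightest probe set by mean stood for the gene. Intensities were taken as log2(value + 16) and filtered at the 40th percentile of zone means, which left 16405 probe sets. limma 3.58.1 in R 4.3.3 fitted 8 group means (lmFit, eBayes with trend; 8 residual and 7.44 prior degrees of freedom), two-sided. The script was tested on simulated data.

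Named were the 4 members, up to 8 called family genes and 6 called ER body genes a contrast, by size, and the 3 most similar genes of each member. Members and lists were chosen with earlier results of these data known. Family membership of loci without a lectin name is from general knowledge. Sequences were not used here, and coordinates served only to order the genes along the chromosomes. Alternatives changed the pseudocount, filter, normalization, prior, block and arrays. Same-numbered replicates are not known to be paired.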

Additional observations from a re-analysis of the deposited data

Results flagged for a closer look

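The low pH effect of JAL33 differed among zones 1, 3 and 4 by the moderated F-test (limma, adjusted p = 0.000112), with -2.06, 1.75 and -2.58 in those zones. That of AT1G52050 differed too (adjusted p = 0.0108), with -2.43, 0.40 and 1.09. AT1G52050 was dim in zones 3 and 4 at pH 5.7, at 25.5 or less. A fall of the zone 1 size could not show there on the log2(intensity + 16) scale, so a different effect and dim signal cannot be told apart. Zone 2 was left out because its low pH values had picked AT1G52050. The zone 1 pH 5.7 arrays that picked JAL33 are in the test, so its result rests partly on selecting values.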

How the results depend on the processing

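Over 40 fold changes of the 4 genes and 26 alternatives, 8 of 1040 values were counted as changing sign, 36 lost a call and 8 gained one. Untested values smaller than their SE were left out of the count of sign changes. JAL33 at low pH in zone 2 was such a value, at -0.017 as reported and from -0.134 to 0.101 over the alternatives. The 8 counted sign changes were all among dim values that were not called in the fit as reported. They were AT1G52050 at low pH in zone 3 (-0.12 without pH 4.6 replicate 2, with a range to 0.91 without 1 array, and -0.35 without the 4 arrays high in plastid transcripts) and from zone 3 to zone 4 at pH 5.7 (-0.071 without zone 3 replicate 2, to 0.38 without 1 array, and -0.20 without the 4 arrays), AT1G52060 at low pH in zone 3 (-0.73 without pH 5.7 replicate 1, to 1.94) and over the same step (from -2.42 to 0.25 without 1 array, 0.41 without the 4), and AT1G52070 over that step (from -1.36 to 0.043). The alternative without those 4 arrays was chosen after seeing the data; it gave 4 called genes in place of 2 at low pH in zone 1 and 0 in place of 1 in zone 3. A fit of the zone 3 arrays alone also gave 0. The zone 1 folds of AT1G52060 and AT1G52070 were the same without the 4 arrays, and only their SE was smaller. A pseudocount of 1 left 1 at low pH in zone 1, and one of 64 left 0 from zone 3 to zone 4 at pH 4.6. The cause was not tested. Without any 1 array the number of called lectin genes ranged from 1 to 3 at low pH in zone 1, stayed at 1 in zones 3 and 4, and was 2 to 3 for the difference among zones. From zone 1 to zone 2 at pH 4.6 it was 3 to 4, from zone 2 to zone 3 it was 3 to 4 at pH 5.7 and 1 to 3 at pH 4.6, and from zone 3 to zone 4 it was 1 to 2 at pH 5.7 and 0 to 1 at pH 4.6.

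With the replicate number as a block the counts of called lectin genes were 2, 1 and 1 at low pH in zones 1, 3 and 4, as without it, and no lectin call changed. Differences between replicates 1 and 2 correlated between groups with r from -0.249 to 0.414, over 0.1 in 9 of 28 pairs of groups. Among zones 2, 3 and 4 at pH 5.7 and zone 3 at pH 4.6, r was 0.278 to 0.414. In these groups replicate 2 was high in plastid transcripts. Same-numbered replicates thus deviated together there, and whether they are paired is not known. Called probe sets in all moved by over 1.5 times without 1 array: from 112 to between 33 and 309 at low pH in zone 1, 459 to between 93 and 1550 in zone 3 and 477 to between 66 and 802 in zone 4. They were 53 to 1564 in place of 331 for the difference among zones, 629 to 3541 in place of 1961 and 191 to 1022 in place of 687 from zone 3 to zone 4 at pH 5.7 and 4.6, 1491 to 3825 in place of 3216 from zone 2 to zone 3 at pH 4.6, and 328 to 2086 in place of 1428 from zone 1 to zone 2 at pH 4.6. Median centring gave 61 in zone 1 and 266 in zone 3, and no intensity trend 55 in zone 1 and 186 for the difference among zones. For that difference a pseudocount of 1 gave 149 and one of 64 gave 643, and in zone 3 a pseudocount of 1 gave 294. Without the 4 arrays the counts were 367, 89 and 294 in zones 1, 3 and 4, 121 for the difference, 898 and 430 from zone 3 to zone 4 and 2408 from zone 1 to zone 2. Fits of the contrast alone gave 49, 63 and 989 in zones 1, 3 and 4, 2614 from zone 2 to zone 3 at pH 5.7, and 568 and 1246 from zone 3 to zone 4. Centring moved an array's median by up to 0.34 on the log2 scale. Dim signals limit what zones 3 and 4 show for the 3 neighbouring genes.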
